A study of Mus musculus with 15 samples.

Results

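The genes examined were the 4 reprogramming factors whose forced expression made the cells: Pou5f1 (the gene for Oct4), Sox2, Klf4 and Myc, found by symbol among the 43432 gene identifiers of the series. Their levels were read in all 15 libraries of a study that sequenced polyadenylated RNA from mouse lines of CD1 genotype, reprogrammed towards induced extraembryonic endoderm stem (iXEN) cells. Retroviral OSKM lines (n = 5) were clones, each grown from 1 cell with an active Oct4-EGFP reporter after retroviruses had carried Oct4, Sox2, Klf4 and Myc into embryonic fibroblasts. Lentiviral SKM lines (n = 5) had received Sox2, Klf4 and Myc by lentivirus and no Oct4 vector, and lentiviral OSKM lines (n = 5) all 4 factors by lentivirus. The lentiviral lines were past passage 11 and each came from its own fibroblast preparation. No label says whether the retroviral clones did so too, so whether they are independent replicates is unknown. P-values of the retroviral comparisons rest on the spread within both groups, which for the retroviral group may be only how clones differ. Sample titles of the lentiviral lines begin with IPS, and their source fields say induced pluripotent except for lentiviral OSKM replicate 1. That line and the 5 retroviral ones are called extraembryonic, with a treatment field that names embryonic stem cell differentiation. The origin given here is that of the series design text.

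Oct4 and Sox2 are DNA-binding proteins that pair on the enhancers of pluripotency genes and are needed for the pluripotent epiblast. In the extraembryonic endoderm, the lineage that XEN cells model, both genes become silent as Gata factors and Sox17 take over. Klf4 is a zinc finger factor that supports naive pluripotency and is also active in epithelia and fibroblasts, and Myc drives growth and ribosome production in most dividing cells. During reprogramming the vectors supply the factors, and established pluripotent lines commonly silence them, above all retroviral ones. A count per gene holds reads from the chromosomal gene and reads from a vector that carries its coding sequence, and these could not be told apart.

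All 4 genes are protein-coding in GENCODE M21 (GRCm38). Pou5f1 lies on chromosome 17 from 35506018 to 35510772 on the plus strand, Sox2 on chromosome 3 from 34650405 to 34652461 on the plus strand, Klf4 on chromosome 4 from 55527143 to 55532466 on the minus strand, and Myc on chromosome 15 from 61985391 to 61990374 on the plus strand. The antisense gene Gm19553 shares 317 of the 2248 exon bases of Pou5f1 and had a count of 0 in all 15 lines. Sox2 sits inside the longer transcript Sox2ot on the same strand, with which it shares 0 exon bases. The chromosomal promoters are among the parts of each locus that a vector copy of the coding sequence does not bring along. Those of Pou5f1 and Klf4 are shown because they differ most in CpG content among the 3 promoters read, those of Pou5f1, Sox2 and Klf4, and belong to a factor that was near 0 in most lines and one that was high in all. The sequences run from 250 bases before to 50 bases after the RefSeq start (GRCm38.p6), with each CG in capitals.
Pou5f1, chr17:35505782-35506081, plus strand: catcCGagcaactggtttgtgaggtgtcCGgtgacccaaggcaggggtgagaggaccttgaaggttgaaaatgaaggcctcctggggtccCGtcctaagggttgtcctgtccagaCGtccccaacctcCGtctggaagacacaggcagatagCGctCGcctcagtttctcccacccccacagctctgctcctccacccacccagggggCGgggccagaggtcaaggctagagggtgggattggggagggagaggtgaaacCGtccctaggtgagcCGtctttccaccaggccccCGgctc
Klf4, chr4:55532426-55532725, minus strand: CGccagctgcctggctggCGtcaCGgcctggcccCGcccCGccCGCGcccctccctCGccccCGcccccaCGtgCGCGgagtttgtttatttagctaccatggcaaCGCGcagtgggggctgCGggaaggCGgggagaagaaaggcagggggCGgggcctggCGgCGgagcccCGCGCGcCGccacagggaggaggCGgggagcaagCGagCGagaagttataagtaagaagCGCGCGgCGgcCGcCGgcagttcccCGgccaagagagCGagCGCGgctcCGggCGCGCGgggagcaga
Pou5f1 holds 11 CG in this window and Klf4 40, while Sox2 (chr3:34649745-34650044, plus strand) holds 27. Of 32851 RefSeq mouse promoters of the same length, 94.6% hold at least 1 CG (a motif that reads the same on both strands), with a median of 7. At least 11 occur in 41.4% of them, at least 27 in 15.5% and at least 40 in 3.91%. The promoter of Myc is not shown.

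Libraries held 34916933 to 46995817 gene counts in retroviral OSKM, 60998360 to 75376275 in lentiviral SKM and 64348250 to 73405134 in lentiviral OSKM lines. Markers of XEN cells were present: all 12 (among them Gata4, Sox17 and Sparc) were above 1 TPM (counts scaled by exon length and library total) in every line. Their summed level was 7852 to 36140 TPM in retroviral OSKM, 19570 to 32240 in lentiviral SKM and 15980 to 34840 in lentiviral OSKM lines. Of 17 pluripotent cell markers, 3 to 8 were above 1 TPM in retroviral OSKM and 3 to 6 in both lentiviral groups, with summed levels of 38.0 to 86.5, 56.1 to 105 and 43.1 to 129 TPM, and Dppa3 was at 0 in all 15 lines. Among these libraries 4 stood apart. Lentiviral SKM replicate 1 and lentiviral OSKM replicate 5 had the highest summed fibroblast markers of their groups (292 and 575 TPM), with Col1a1 at 81.0 and 102 TPM. Not all 16 of these markers were high: Dcn, Lum and Postn were at 0.075, 0 and 0.164 TPM in lentiviral SKM replicate 1. Lentiviral SKM replicates 1 and 2 each had 12 markers above 1 TPM, and the sum of replicate 2 was 184 TPM. In retroviral OSKM replicate 1 the mesenchymal genes Prrx1 (43.3 TPM) and S100a4 (219 TPM) were high. Low levels of the type IV collagen gene Col4a1 were found there (23.3 TPM) and in lentiviral OSKM replicate 5 (28.4 TPM). Every other line had at least 2099 TPM of Col4a1. In retroviral OSKM replicate 3 the endoderm factor Foxa2 was at 3.37 TPM against at least 169 TPM in every other line.

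Pou5f1 was near 0 in all 10 lentiviral lines, whether or not they had received an Oct4 vector, and spanned 658-fold among the retroviral clones. As counts scaled by TMM-corrected library size (CPM), the 5 retroviral OSKM replicates had 74.4, 0.673, 8.001, 0.113 and 21.9. It stood at 0, 0.115, 0.136, 0.381 and 0.540 CPM in lentiviral SKM replicates 1 to 5, and at 0.556, 0.0145, 0.176, 0.0989 and 0.171 CPM in lentiviral OSKM replicates 1 to 5. Retroviral replicates 1, 3 and 5 lay above every lentiviral line, replicate 2 just above the highest of them, and replicate 4 within the lentiviral range, so the retroviral group overlapped both others. The 2 lentiviral groups overlapped almost fully. These levels rest on 2682, 25, 329, 4 and 944 reads in retroviral OSKM, 0, 7, 9, 23 and 42 in lentiviral SKM and 38, 1, 13, 7 and 12 in lentiviral OSKM lines. For the count of 0 in lentiviral SKM replicate 1 the limit of 3 counts allows up to 0.0466 CPM. Exact Poisson intervals (95%), which cover counting error only, ran from 71.6 to 77.3 CPM in retroviral OSKM replicate 1 and from 0.0308 to 0.290 CPM in replicate 4. In a bulk library, fewer cells with a transcript and less of it per cell cannot be told apart.

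Sox2, the partner of Oct4 on DNA, was at most 3 counts in 10 of the 15 lines. Its level in the 5 retroviral OSKM replicates was 67.3, 0, 0.0243, 4.98 and 0.0697 CPM. Sox2 was at 0, 0.0329, 0, 0 and 0 CPM in lentiviral SKM replicates 1 to 5, and at 1.04, 0.870, 0.0271, 0 and 0.712 CPM in lentiviral OSKM replicates 1 to 5. One clone was far above all other lines, another was at an intermediate level, and the remaining 3 retroviral lines were at or near 0. Lentiviral OSKM replicates 1, 2 and 5 had a low but countable level of 71, 60 and 50 reads, whereas the 5 lentiviral SKM lines, which had also received a Sox2 vector, held 2 reads together. Of these 3 lentiviral OSKM lines, replicate 5 is the one with high fibroblast markers, while replicates 1 and 2 had summed fibroblast markers of 81.7 and 105 TPM, within the range of the other lentiviral lines. The part of these markers in the Sox2 level was not tested.

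The lines with Pou5f1 were mostly not the lines with Sox2. Retroviral OSKM replicate 1 was the only line of 15 above 1 CPM for both genes, with 104 TPM of Pou5f1 and 103 TPM of Sox2. Retroviral replicates 3 and 5 had Pou5f1 at 10.9 and 33.4 TPM with 1 and 3 reads of Sox2, and replicate 4 had Sox2 at 7.16 TPM with 4 reads of Pou5f1. In replicate 1, Pou5f1 reached the percentile 92.2 and Sox2 92.1 of the genes detected in that library. Summed fibroblast markers were 486 TPM in this clone and 24.9 to 55.1 TPM in the 4 other clones. The sum of this clone was led by S100a4 (219 TPM) and Col6a1 (136 TPM), with 9 of 16 markers above 1 TPM. Thy1, Col3a1 and Dcn were at 0.901, 0.018 and 0.119 TPM in it. The part of these markers in the Pou5f1 and Sox2 levels of the clone was not tested. All 5 clones had been picked by the reporter of the Oct4 gene, and as established lines 2 of 5 stood below 1 CPM of Pou5f1.

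**Figure D1:**
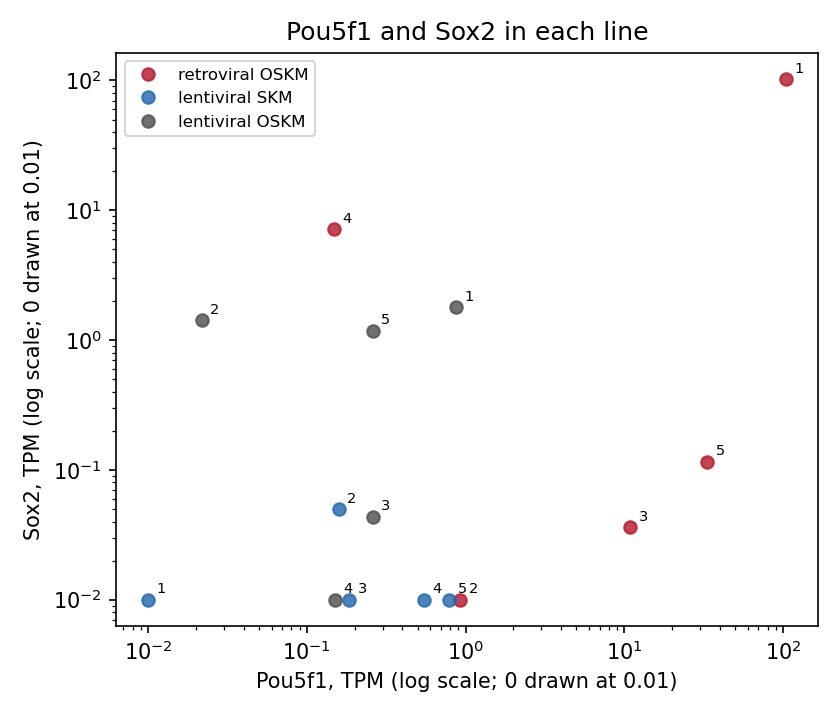
Each point is 1 line, with the level of Pou5f1 on the x axis and of Sox2 on the y axis (TPM, log scales, 0 drawn at 0.01), coloured by group and numbered by replicate. Retroviral OSKM replicate 1 stands alone at 104 and 103 TPM, replicates 3 and 5 lie at the right edge near the bottom, and replicate 4 lies high on the left.

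Klf4 was high in every line and did not set the groups apart. The 5 retroviral OSKM replicates had 398, 231, 46.6, 160 and 401 CPM. Klf4 was at 150, 436, 396, 229 and 284 CPM in lentiviral SKM replicates 1 to 5, and at 341, 256, 262, 150 and 136 CPM in lentiviral OSKM replicates 1 to 5. The 3 groups overlapped over most of their range, and the lowest line was retroviral OSKM replicate 3, the clone with little Foxa2. Within a library Klf4 ranked between the percentiles 84.0 and 98.5 of detected genes by TPM.

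Myc was also high in every line, and 4 of the 5 retroviral clones lay above all lentiviral lines. Levels in the 5 retroviral OSKM replicates were 258, 210, 157, 72.3 and 158 CPM. Myc was at 55.9, 66.1, 80.2, 110 and 98.0 CPM in lentiviral SKM replicates 1 to 5, and at 95.2, 104, 39.6, 79.1 and 54.2 CPM in lentiviral OSKM replicates 1 to 5. Retroviral replicate 4 fell inside the lentiviral range, so the groups overlapped by that 1 line. Per exon length, Klf4 was above Myc in 13 of 15 lines, the exceptions being retroviral OSKM replicates 2 and 3, and both were above Pou5f1 and Sox2 in 15 of 15.

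**Figure D2:**
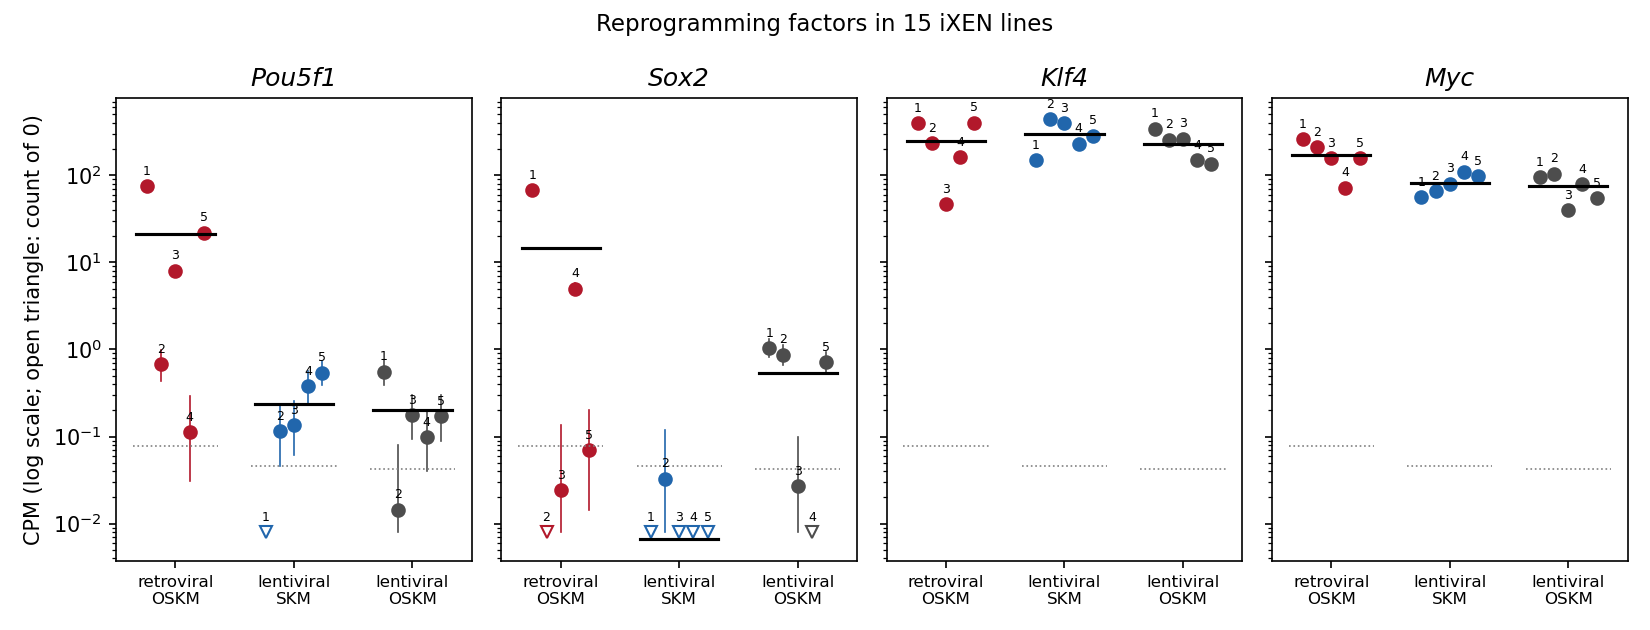
Levels of the 4 factors in each line in CPM on a log axis, numbered by replicate, with exact 95% Poisson intervals as thin vertical lines, the group mean as a black bar and the limit of 3 counts as a dotted line. Open triangles at the bottom are counts of 0. Pou5f1 and Sox2 spread over several log units among the retroviral OSKM lines, while Klf4 and Myc lay between 39.6 and 436 CPM in all 15.

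Among the retroviral clones, Pou5f1 and Sox2 spread more widely than Klf4 and Myc. As the SD over lines of log2(CPM + 0.5), Pou5f1 varied by 2.89 in retroviral OSKM, 0.43 in lentiviral SKM and 0.39 in lentiviral OSKM lines. Sox2 varied by 3.12, 0.04 and 0.78 in the same order of groups, and in lentiviral OSKM lines by more than Klf4 and Myc. The added 0.5 damps differences between levels near 0. As SD in percent of mean CPM, Pou5f1 varied by 93.9% in lentiviral SKM and 102% in lentiviral OSKM lines. Klf4 varied by 39% and 37% in these 2 groups, and Myc by 27% and 37%. Without retroviral OSKM replicate 1 the retroviral SD was 2.42 for Pou5f1 and 1.69 for Sox2. Among 16181 genes, the retroviral spread of Pou5f1 was at the percentile 99.7 and that of Sox2 at 99.8, against a median SD of 0.43 over genes. Klf4, with SDs of 1.27, 0.62 and 0.57, was at the percentile 92.0 in retroviral OSKM lines, and Myc, with 0.69, 0.40 and 0.58, at 76.5. The retroviral SD of Klf4 was 0.64 without replicate 3, the clone with little Foxa2, and that of Myc 0.35 without replicate 4.

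The lentiviral SKM and lentiviral OSKM lines address what an Oct4 vector in the starting mixture leaves in the finished line. Mean Pou5f1 was 0.234 ± 0.220 CPM in lentiviral SKM and 0.203 ± 0.208 CPM in lentiviral OSKM lines (SD, n = 5 each), with a log2 fold change of 0.20 and a 95% interval of −1.98 to 2.39. Klf4 averaged 299 ± 118 CPM in lentiviral SKM and 229 ± 85.5 CPM in lentiviral OSKM lines (0.38 on the log2 scale, interval −0.33 to 1.09), and Myc 82.0 ± 22.2 and 74.5 ± 27.2 CPM (0.13, interval −0.48 to 0.75). Of these 3 tested factors 0 passed with edgeR's quasi-likelihood test and Benjamini-Hochberg adjustment (adjusted p = 0.998, 0.987 and 0.993), and 0 reached an unadjusted p under 0.05. Over all 15899 genes tested 0% were called by edgeR, and 4.86% had an unadjusted p under 0.05. DESeq2 called 0.277% of all genes and 0 of the factors. For 0 of the factors did the groups not overlap, against 0.396% of genes with all lentiviral SKM lines higher and 0.34% with all lower. Without lentiviral SKM replicate 1 and lentiviral OSKM replicate 5, a choice made after seeing the data, the log2 fold changes were 0.46, 0.40 and 0.14. Sox2 was too low for the filter of the test. Its pooled reads, 2 in lentiviral SKM and 183 in lentiviral OSKM lines, give a ratio of pooled CPM of 0.0117 with an exact 95% interval of 0.0014 to 0.0428, which covers counting error only. With no filter on low counts its log2 fold change was −6.06 (SE 1.55), with an unadjusted p of 0.00186 and an adjusted p of 0.675 in the same edgeR test.

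The retroviral OSKM and lentiviral OSKM lines had received the same 4 factors by different vectors. Pou5f1 averaged 21.03 ± 31.1 CPM in retroviral OSKM and 0.203 ± 0.208 CPM in lentiviral OSKM lines (SD, n = 5 each), a log2 fold change of 6.68 (SE 1.60, interval 3.18 to 10.19), and 4 of 5 clones lay above the lentiviral mean. It did not pass with edgeR's quasi-likelihood test and Benjamini-Hochberg adjustment (adjusted p = 0.125) and passed with DESeq2 (adjusted p = 8.05e-05; 8.05e-05 to 0.319 over all alternatives). Without retroviral OSKM replicate 1 its log2 fold change was 5.23 and its edgeR adjusted p = 0.200, and without all 3 libraries of the comparison that stood apart 5.15 and 0.298. Myc averaged 171 ± 69.3 CPM in retroviral OSKM and 74.5 ± 27.2 CPM in lentiviral OSKM lines, which is 1.20 on the log2 scale (SE 0.35, interval 0.43 to 1.97). Its adjusted p was 0.178 with edgeR and 0.0367 with DESeq2 (0.0367 to 0.451 over all alternatives), with 4 of 5 clones above the lentiviral mean. Without those 3 libraries it was 0.88 (edgeR adjusted p = 0.451).

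Sox2 averaged 14.5 ± 29.6 CPM in retroviral OSKM and 0.530 ± 0.485 CPM in lentiviral OSKM lines, and 2 of 5 clones lay above the lentiviral mean. Its log2 fold change of 4.77 (SE 2.14, edgeR adjusted p = 0.342) was 1.25 without retroviral OSKM replicate 1, and 1.79 without the 3 libraries that stood apart. Klf4 averaged 247 ± 154 CPM in retroviral OSKM and 229 ± 85.5 CPM in lentiviral OSKM lines, with a log2 fold change of 0.11 (SE 0.49, interval −0.96 to 1.19, edgeR adjusted p = 0.942). By edgeR 0 of 4 factors passed, against 0.252% of 15483 genes. An unadjusted p under 0.05 was found for 3 of the 4, against 14.5% of all genes. DESeq2 called 2 of the 4, Pou5f1 and Myc, against 4.02% of all genes. For 0 of the 4 did the groups not overlap, against 1.98% of genes with all retroviral lines higher and 2.07% with all lower. Retroviral and lentiviral libraries form separate count tables, and the retroviral lines were clones picked by the Oct4-EGFP reporter. Library series, vector, clonal origin and picking by the reporter therefore cannot be told apart.

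In the comparison with lentiviral SKM lines, library series, virus type, an Oct4 vector, clonal origin and picking by the reporter cannot be told apart either. Set against the lentiviral SKM lines, which are different libraries but the same retroviral clones, the values were as follows. Pou5f1 averaged 21.03 ± 31.1 CPM in retroviral OSKM and 0.234 ± 0.220 CPM in lentiviral SKM lines. This is 6.48 on the log2 scale (SE 1.64), with an adjusted p of 0.128 by edgeR's quasi-likelihood test and 0.000829 by DESeq2. Myc averaged 171 ± 69.3 CPM in retroviral OSKM and 82.0 ± 22.2 CPM in lentiviral SKM lines, 1.07 on the log2 scale (SE 0.31), with adjusted p = 0.170 by edgeR and 0.0409 by DESeq2. The log2 fold change of Klf4 was −0.26 (SE 0.50, edgeR adjusted p = 0.837). Of the 3 factors tested edgeR called 0 and DESeq2 called 2, against 0.28% and 4.87% of 15370 genes. In edgeR 2 were at an unadjusted p under 0.05, against 15.4% of all genes. For 0 of the factors did the groups not overlap, against 2.11% of genes with all retroviral lines higher and 2.12% with all lower. Sox2 was too low for the filter of the test. With no filter its log2 fold change was 10.71 (SE 2.54), with an edgeR adjusted p of 0.174, a value that depends on the prior count given to lines at 0. Its pooled counts were 2604 in retroviral OSKM and 2 in lentiviral SKM lines, a ratio of pooled CPM of 2228 (exact 95% interval 616 to 18410), and 180 against 2 without retroviral OSKM replicate 1, a ratio of 189 (51.7 to 1576). These intervals cover counting error only, not the spread between clones, which ran from 0 to 2424 reads. With retroviral OSKM replicates 1 and 3 and lentiviral SKM replicate 1 left out, a choice made after seeing the data, the log2 fold change of Pou5f1 was 4.65 and that of Myc 0.71 (edgeR adjusted p = 0.290 and 0.458).

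**Figure D3:**
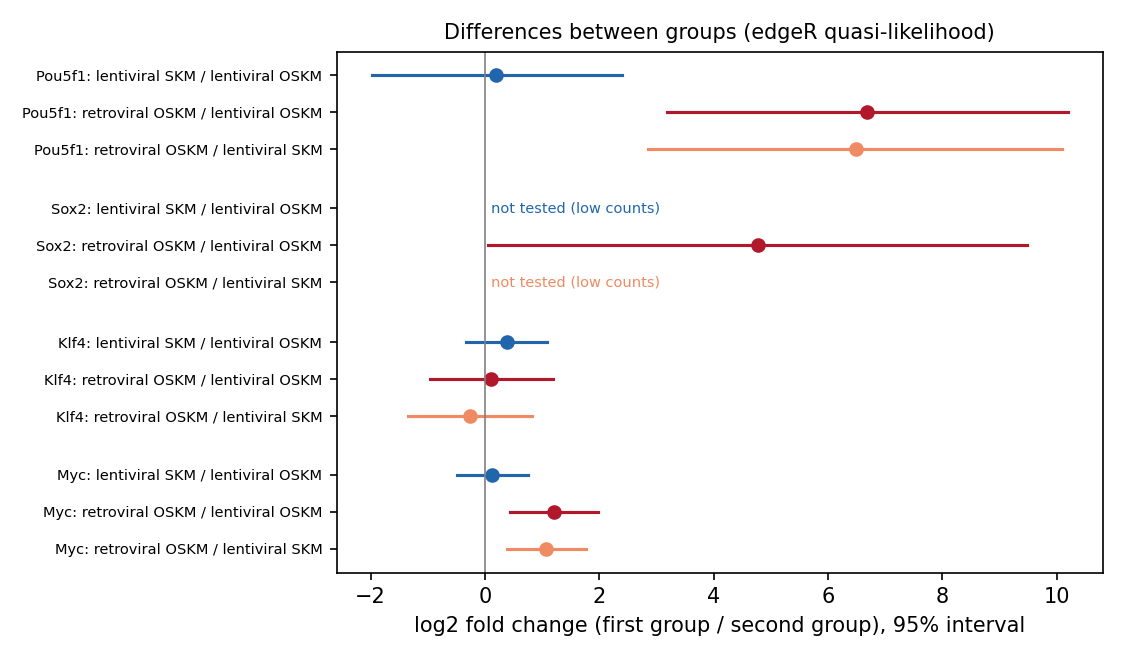
Log2 fold changes of the 4 factors (x axis, first group over second) with 95% intervals from edgeR's quasi-likelihood fit, 1 row per factor and comparison. The Pou5f1 and Myc intervals of both retroviral comparisons lie right of 0, those of Klf4 and of the lentiviral comparison span 0, and Sox2 was tested in only 1 comparison.

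Relatives of each factor, and for Myc also partners and repressors of its network, were measured beside it, since some family members can replace one another in culture. Whether the genes named here can do so was not tested. Of the POU family other than Pou5f1, 1 of 14 genes was above 1 TPM in all 15 lines, the broadly expressed factor Pou2f1 (Oct1), at a mean of 8.27 TPM over lines. Next in level were Pou6f1, at a mean of 1.36 TPM, and the neural factors Pou3f1 and Pou3f4, neither of them above 2.5 TPM in any line. Of the SOX family other than Sox2, 3 of 18 genes were above 1 TPM in every line. These were the endoderm factors Sox17 (mean 317 TPM) and Sox7 (315 TPM) and the SoxD gene Sox13 (30.3 TPM), and the next was Sox21 (15.3 TPM), whose protein is close to Sox2 in its DNA-binding part. Sox17 was at 228 to 413 TPM in retroviral OSKM, 226 to 423 in lentiviral SKM and 224 to 435 in lentiviral OSKM lines. Sox1, another close relative of Sox2, reached 4.34 TPM in retroviral OSKM replicate 1, the clone with most Sox2, and at most 0.207 TPM elsewhere. Sox1 was picked out after its values were seen.

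The KLF and MYC families were broadly present. Of the KLF family other than Klf4, 11 of 16 genes were above 1 TPM in all 15 lines, led by Klf6 (mean 129 TPM), Klf5 (96.6 TPM), Klf16 (70.0 TPM) and Klf13 (45.3 TPM). Klf5, which shares sites with Klf4 in pluripotent cells, was at 54.0 to 278 TPM in retroviral OSKM, 81.3 to 98.7 in lentiviral SKM and 59.0 to 109 in lentiviral OSKM lines. Of the MYC-MAX network other than Myc, 12 of 13 genes were above 1 TPM in every line, led by Mycn (mean 167 TPM), the shared partner Max (87.5 TPM), Mlx (86.0 TPM) and the repressor Mnt (50.2 TPM). By edgeR 0 of the POU, SOX and KLF relatives and MYC-MAX network genes passed in any comparison. Those tested numbered 4, 9, 14 and 12 in lentiviral SKM against lentiviral OSKM, 5, 10, 13 and 12 in retroviral against lentiviral OSKM, and 4, 10, 12 and 12 in retroviral OSKM against lentiviral SKM lines. At an unadjusted p under 0.05 were 1 KLF gene in the first comparison, 1 MYC-MAX gene in the second, and 1 POU and 1 KLF gene in the third. Over all genes tested that level was reached by 4.86%, 14.5% and 15.4% in the same order. DESeq2 and voom called 0 of the relatives. Of all genes edgeR called 0%, 0.252% and 0.28%, and DESeq2 0.277%, 4.02% and 4.87%.

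**Figure D4:**
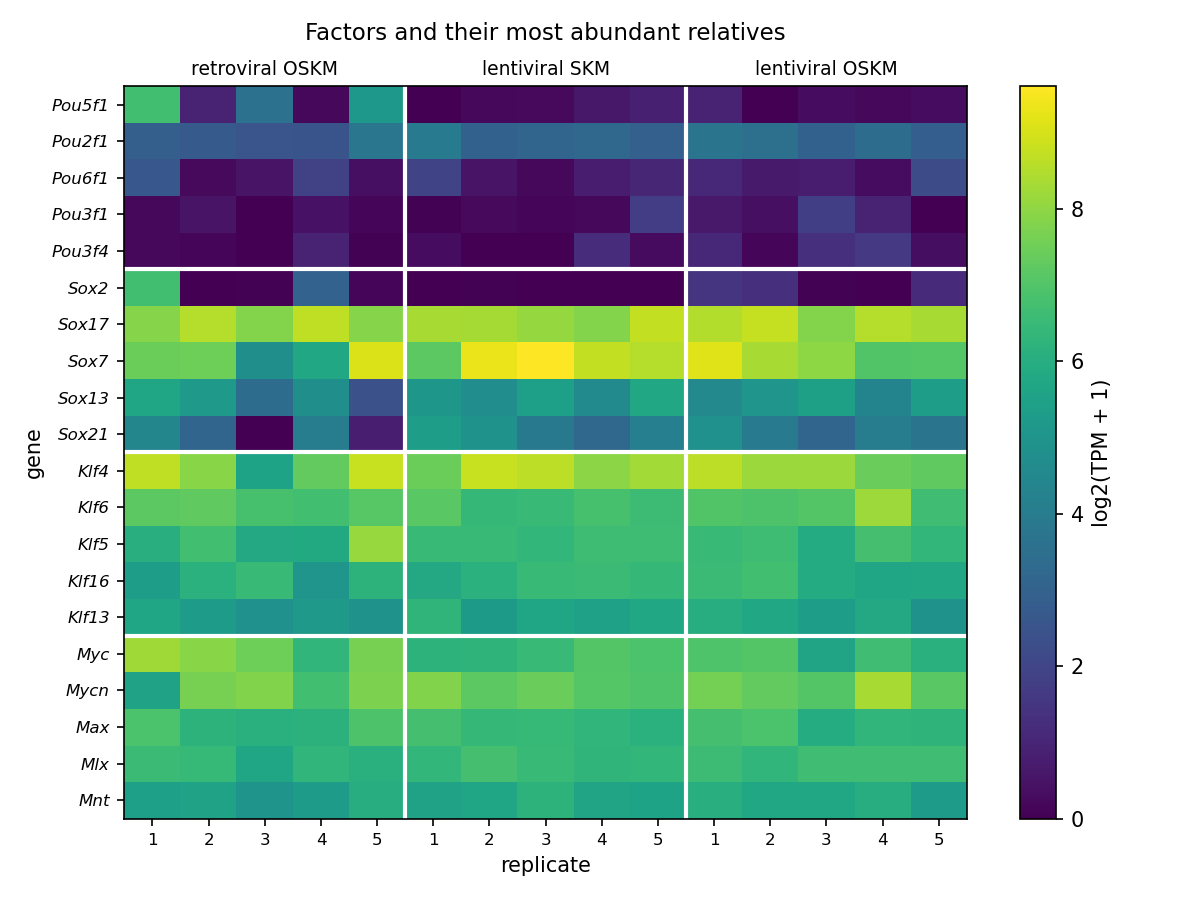
Colour gives log2(TPM + 1) of each factor (first row of each block) and the 4 most abundant members of its family in every line, with replicates 1 to 5 of each group as columns. Pou5f1 is brightest in retroviral OSKM replicates 1, 3 and 5 and Sox2 in replicates 1 and 4, while Sox17, Sox7, Klf6 and Mycn are bright across the columns.

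Mycn, the paralog that can replace Myc in reprogramming, was the more abundant of the pair in most lines. Its level was 45.4, 197, 218, 103 and 206 TPM in retroviral OSKM replicates 1 to 5. It was 219, 143, 170, 133 and 125 TPM in lentiviral SKM replicates 1 to 5, and 192, 158, 130, 324 and 140 TPM in lentiviral OSKM replicates 1 to 5. The ratio of Myc to Mycn was 6.56, 1.21, 0.814, 0.764 and 0.963 in the retroviral lines, 0.332 to 0.982 in lentiviral SKM and 0.306 to 0.820 in lentiviral OSKM lines. Myc exceeded Mycn in retroviral OSKM replicates 1 and 2 alone, and replicate 1 held both the most Myc and the least Mycn of all 15 lines. The log2 fold change of Mycn was −0.18 (SE 0.40) in retroviral against lentiviral OSKM and 0.02 (SE 0.36) in retroviral OSKM against lentiviral SKM lines, with edgeR adjusted p of 0.877 and 0.988.

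**Figure D5:**
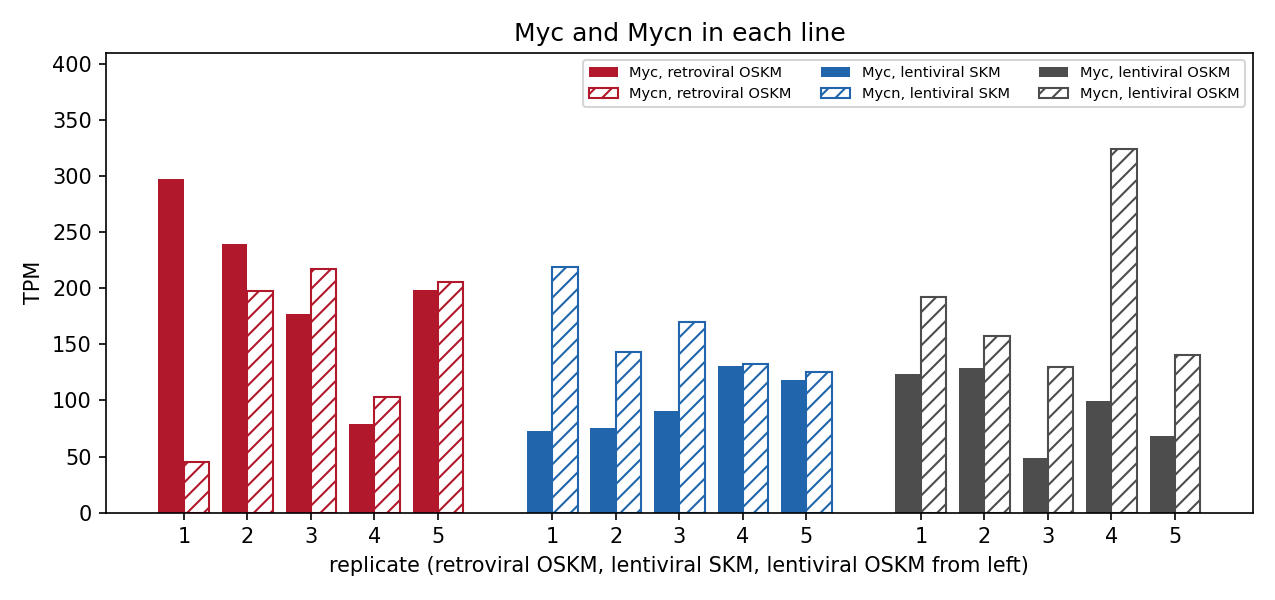
Bars give the TPM of Myc (filled) and Mycn (hatched) in each line, by replicate, with retroviral OSKM at the left, lentiviral SKM in the middle and lentiviral OSKM at the right. Filled bars exceed hatched ones only in retroviral OSKM replicates 1 and 2.

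Of 16 genes known as direct targets of Oct4 and Sox2 in pluripotent cells, 5 were above 1 TPM in the clone with most of both factors. The other lines had 6 to 11 of them above 1 TPM, and some were near 0 throughout, such as Fgf4 (at most 0.0811 TPM). By edgeR 0 of these genes passed in any comparison. The highest of the 16 were Lin28a (mean 317 TPM), an RNA-binding protein, Sall4 and Spp1, and of these Lin28a and Sall4 were abundant in all 15 lines. The rank of Spp1 rested on lentiviral OSKM replicate 5, a library with high fibroblast markers, where it was at 914 TPM, against at most 124 TPM in any other line. Retroviral OSKM replicate 1, with 104 TPM of Pou5f1, had 0.117 TPM of Nanog, 0 of Zfp42, 0 of Fgf4 and 0.142 TPM of Utf1. Its summed pluripotent cell markers, 56.9 TPM, lay within the range of the lentiviral lines. That sum was led by Tfcp2l1 (38.4 TPM) and Klf2 (11.6 TPM), both above 1 TPM in all 15 lines. One pluripotent cell marker, the TGF-beta family ligand gene Gdf3, was found in this clone alone, at 5.71 TPM. Utf1 was at 7.46 and 13.6 TPM in retroviral OSKM replicates 2 and 3, where Pou5f1 was at 0.926 and 10.9 TPM. Of the 10 target genes tested in retroviral against lentiviral OSKM lines, edgeR called 0, with 3 at an unadjusted p under 0.05 (14.5% of all genes), and DESeq2 called 1, Utf1 (4.02% of all genes). In retroviral OSKM against lentiviral SKM lines edgeR called 0 of 11, with 2 at an unadjusted p under 0.05 (15.4% of all genes), and DESeq2 called 1, Spp1, which was lower (4.87% of all genes). In lentiviral SKM against lentiviral OSKM lines edgeR and DESeq2 called 0 of 10, with 0 at an unadjusted p under 0.05 (4.86% of all genes). Nanog, Zfp42, Fgf4, Utf1, Gdf3, Tfcp2l1 and Klf2 were named after their values were seen.

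Genes that Myc is known to activate, most of them for ribosome production and metabolism, were more often higher than lower in the retroviral lines, and 0 passed edgeR. Of 20 such genes, 14 were higher and 6 lower in retroviral than in lentiviral OSKM lines. Their median difference was 0.30 on the log2 scale, against 0.03 over all genes tested. In retroviral OSKM against lentiviral SKM lines 15 were higher and 5 lower (median 0.30 against 0.05), and in lentiviral SKM against lentiviral OSKM lines 10 were higher and 10 lower (median −0.01 against 0.00). By edgeR 0 of 20 passed in each comparison, with 8, 8 and 1 at an unadjusted p under 0.05, against 14.5%, 15.4% and 4.86% of all genes tested. Of all genes, 52.3%, 54.0% and 49.8% were higher in the same order of comparisons. DESeq2 called 3 in each retroviral comparison, Pa2g4, Nop58 and Npm1, and 0 between the lentiviral groups, against 4.02%, 4.87% and 0.277% of all genes. Npm1 also passed in both retroviral comparisons with edgeR fitted on all 15 libraries and with voom quality weights. Over lentiviral OSKM lines it passed further with limma voom, at a minimum count of 50, and without retroviral OSKM replicate 3 or 5. Without the libraries that stood apart the medians were 0.20 (15 higher, 5 lower) against lentiviral OSKM and 0.17 (14 higher, 6 lower) against lentiviral SKM lines, and edgeR called 0. The nucleolar chaperone gene Npm1 averaged 2700 ± 1110 TPM in retroviral OSKM, 1182 ± 234 in lentiviral SKM and 1117 ± 67.6 in lentiviral OSKM lines. All 5 retroviral lines, at 2020 to 4626 TPM, lay above the highest lentiviral line, at 1402 TPM (log2 fold change over lentiviral OSKM 1.41, SE 0.26, edgeR adjusted p = 0.0564). By CPM, groups did not overlap for 3 of the 20 genes in each retroviral comparison. That held for 1.98% of all genes with retroviral lines higher than lentiviral OSKM and 2.11% higher than lentiviral SKM lines. Of these Myc target genes, Fbl (over lentiviral OSKM lines) and Pa2g4 (over lentiviral SKM lines) overlapped by TPM. Retroviral OSKM replicate 4, whose Myc was within the lentiviral range, was among the lines above it for Npm1.

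In the lists chosen for the control of Myc and of the vectors, 0 genes passed edgeR on the 10 libraries of each comparison. For 10 genes of Myc turnover, led by the kinase gene Aurka at a mean of 128 TPM, the median log2 fold change was −0.08 in retroviral against lentiviral OSKM, −0.14 in retroviral OSKM against lentiviral SKM and 0.05 in lentiviral SKM against lentiviral OSKM lines, with 0, 1 and 0 at an unadjusted p under 0.05. Among 7 cell cycle inhibitors, led by Cdkn1a at a mean of 160 TPM, the medians were −0.05, 0.08 and 0.03 in the same order, with 1, 1 and 0 at that level. DESeq2 called 0 of these 2 lists. The 18 genes known to silence integrated proviruses, such as the corepressor gene Trim28 and the DNA methyltransferase genes, had 17 or 18 members above 1 TPM in each line, with medians of 0.04, 0.06 and 0.07. Of them DESeq2 called Sumo2 in both retroviral comparisons and Dnmt3b against lentiviral SKM lines, against 4.02% of all genes over lentiviral OSKM and 4.87% over lentiviral SKM lines. In edgeR 2, 4 and 1 of the 18 were at an unadjusted p under 0.05, against 14.5%, 15.4% and 4.86% of all genes. Sumo2 also passed in both retroviral comparisons with edgeR fitted on all 15 libraries and with voom quality weights, and over lentiviral OSKM lines without retroviral OSKM replicate 5. Sumo2, a small modifier protein, was at 331 to 475 TPM in retroviral OSKM, 209 to 277 in lentiviral SKM and 229 to 292 in lentiviral OSKM lines. The retroviral lines did not overlap the others by TPM or by CPM. By CPM that held for 1.98% of all genes over lentiviral OSKM and 2.11% over lentiviral SKM lines. Log2 fold changes of Sumo2 were 0.74 over lentiviral SKM and 0.76 over lentiviral OSKM lines (edgeR adjusted p = 0.104 and 0.0898).

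Of the genes next to the factors on the chromosome, Tcf19, Atp11b and Rad23b had counts enough for the edgeR test, and 0 passed. Over all genes tested edgeR called 0% in lentiviral SKM against lentiviral OSKM and 0.252% in retroviral against lentiviral OSKM lines. It called 0.28% in retroviral OSKM against lentiviral SKM lines. With shares this low, a count of 0 says little about these loci. Tcf19, the nearest protein-coding gene on the higher side of Pou5f1, ranged from 6.91 to 25.3 CPM over the 15 lines. Its log2 fold change was −0.59 (SE 0.30) in retroviral against lentiviral OSKM and −0.61 (SE 0.32) in retroviral OSKM against lentiviral SKM lines, with edgeR adjusted p of 0.397 and 0.388. H2-Q10, on the lower side of Pou5f1, reached at most 0.256 CPM. Atp11b, on the higher side of Sox2, averaged 71.6 CPM in retroviral OSKM, 56.2 in lentiviral SKM and 59.4 in lentiviral OSKM lines, with edgeR adjusted p of 0.555 over lentiviral OSKM and 0.437 over lentiviral SKM lines. Rad23b, below Klf4, ranged from 193 to 363 CPM over the 15 lines. The other neighbours, Dnajc19 beside Sox2, Actl7b beside Klf4, and A1bg and Gsdmc beside Myc, reached at most 0.222 CPM.

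The genes whose log2(CPM + 0.5) moved most like a factor over the 15 lines were sought among 11594 genes whose mean reached 1 CPM, as a description. All share libraries and depth with the factor. For Pou5f1 these were Tenm4 (Pearson r = 0.89), Thap12, Tst, Zfp62 and Akap7, and for Sox2 Mfsd6 (r = 0.91), Ehf, Pipox, Nat8l and Nppc. Each of these 10 had its highest level in retroviral OSKM replicate 1, as did Nop56, Ddx21 and Wdr74 of the genes most like Myc, and r without that line was not computed. For Klf4 they were the growth factor receptor gene Fgfr4 (r = 0.92), Aifm2, Rassf3, Ppfibp2 and Appbp2. For Myc they were Wdr43 (r = 0.88), Nop56, Ddx21, Wdr74 and Eif3j2, of which Wdr43, Nop56, Ddx21 and Wdr74 are known for ribosome production.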

How the data were processed

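The authors deposited raw read counts per gene under Ensembl identifiers, in separate tables for the retroviral and the lentiviral lines. Per the submitters' processing notes, the tools were HTSeq 0.11.2, SAMtools 1.9, HISAT2 2.1.0 and Trimmomatic 0.39, on build mm10. Neither annotation nor strand setting is given in the sources used here. The 5 HTSeq summary rows were left out; genes took 68.8% to 77.0% of a library. Symbols, positions and exon lengths came from GENCODE M21, near copies from BLAST+ 2.17.0.

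The 4 members and 14 gene lists were chosen with earlier results of these data known. Each comparison was fitted on its own 10 libraries with edgeR 4.0.16 in R 4.3.3 (TMM, filterByExpr with a minimum count of 10, quasi-likelihood F test, Benjamini-Hochberg adjustment over all genes tested, threshold 0.05), checked on simulated counts. A call or pass means that threshold. The 3 comparisons share libraries, so their results are not independent. Named were the factors, the 4 most abundant relatives per family, up to 3 genes of the other lists, neighbours and the 5 genes most like each factor. Alternatives were DESeq2 1.42.0, limma 3.58.1 voom, other scalings, filters and pseudocounts, all 15 libraries, a replicate block and each library left out. Leaving out the 4 libraries that stood apart was added after seeing the data.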

Additional observations from a re-analysis of the deposited data

Results flagged for a closer look

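In 24 sets of 5 lines the highest and lowest line were compared with the rest of the group. Sox2 in lentiviral SKM lines, under the limit of 3 counts, was passed over. Far from their group stood 4 values, from 3 lines. Chance flags about 1 in 20 sets of normally distributed values, which unlogged CPM and TPM need not be. Sox2 in retroviral OSKM replicate 1 was at 67.3 CPM, far above the 4 other clones. Summed fibroblast markers were 486 TPM in the same clone and 575 TPM in lentiviral OSKM replicate 5, each far above its group. Summed trophoblast markers were 35.1 TPM in retroviral OSKM replicate 3, against 11.9 to 14.1 TPM in the other clones.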

How the results depend on the processing

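No alternative turned the sign of Pou5f1, Sox2 or Myc in the retroviral comparisons, and with DESeq2 alone Pou5f1 (6.69, adjusted p = 8.05e-05, against lentiviral OSKM; 6.48, 0.000829, against lentiviral SKM) and Myc (1.19, 0.0367; 1.05, 0.0409) passed. The size of the difference moved: over all alternatives that of Pou5f1 ranged from 3.71 (voom with quality weights) to 7.49 against lentiviral OSKM and from 3.21 to 7.02 against lentiviral SKM lines, and that of Sox2 against lentiviral OSKM lines from 0.94 (replicate block) to 5.17, with 1.21 by voom. In lentiviral SKM against lentiviral OSKM lines the small log2 fold change of Pou5f1 was −0.08 with voom and −0.37 to 1.02 with 1 line left out, −0.04 and −0.37 without lentiviral SKM replicates 4 and 5 and −0.10 without lentiviral OSKM replicate 2, and that of Myc −0.03 to 0.28, with −0.03 without lentiviral OSKM replicate 3. Klf4 in retroviral against lentiviral OSKM lines was −0.15 with voom, −0.34 with quality weights, −0.10 with the replicate block and −0.16 to 0.38 with 1 line left out (−0.13, −0.16, −0.01 and −0.02 without retroviral replicates 1 and 5 and lentiviral replicates 4 and 5). Counts of called genes moved most. They were 0, 39 and 43 (lentiviral SKM against lentiviral OSKM, retroviral against lentiviral OSKM, retroviral OSKM against lentiviral SKM), 44, 623 and 748 with DESeq2, 24 and 22 without a filter, 62 at a minimum count of 50 (second comparison), 63 with voom (second), 225 and 182 with quality weights, 155 and 145 with all 15 libraries, and 7 and 11 without the libraries that stood apart. With 1 line left out they ran from 0 to 0, 15 to 101 and 13 to 62. With library size as the only scaling, 9 of 28 calls were higher in the second comparison, against 17 of 39. The replicate numbers are shared labels only: same-numbered lines had correlations of −0.186 to 0.298, and the replicate block gave 0, 3 and 5 called genes. With a pseudocount of 0.1 the SD of Pou5f1 was 1.05 in lentiviral SKM and 0.914 in lentiviral OSKM lines, and that of Sox2 0.183 and 1.71. A minimum count of 50 left Pou5f1 and Sox2 untested, and DESeq2 gave Sox2 no adjusted p. The cause of these shifts was not tested. Low counts limit Pou5f1 and Sox2 in most lines.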
